A study of Mus musculus with 12 samples.

Results

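The Schlafen family was described in bone marrow-derived macrophages (BMDMs), as 7 genes out of 43131 in the table of counts: Slfn1, Slfn2, Slfn3, Slfn4, Slfn5, Slfn8 and Slfn9. They were found by symbol, and of their 23 transcript rows the one with the highest total count was taken for each gene. All 7 passed the filter on low counts in every comparison. The macrophages came from C57BL/6 mice in which both copies of tlr4 are flanked by loxP sites (tlr4f/f), with or without a Cre gene driven by the lysozyme M promoter (lysM-cre), which deletes tlr4 in myeloid cells. Every group, the controls included, therefore carries the floxed tlr4. Bone marrow was cultured with M-CSF for 7 days, and the cells were left untreated or received 1 µg/mL of lipopolysaccharide (LPS), the bacterial ligand of TLR4, for 6 hours. RNA was sequenced in 3 libraries for each of 4 groups, 12 libraries in all: tlr4f/f cells without LPS (headed LPS- tlr4f/f) or with it (LPS+ tlr4f/f), and in the same way the groups headed LPS- tlr4f/f-lysM-cre or, with LPS, LPS+ tlr4f/f-lysM-cre. The age of the mice is not given for this experiment. The study calls the replicates independent but does not say whether they came from separate mice or from separate cultures. The p-values measure the spread between these libraries, part of which may be technical.

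Schlafen genes encode proteins that share an N-terminal core domain and are best known from T cells and macrophages, where several of them are induced by type I interferon and where they restrain growth, bind or cut transfer RNA, or act against viruses. In the mouse they are sorted by length. Slfn1 and Slfn2 are short and hold little beyond the core domain, Slfn3 and Slfn4 carry an additional linker domain, and the long members Slfn5, Slfn8 and Slfn9 end in a domain that resembles a helicase. In macrophages, TLR4 signals through the adaptor TRIF to IRF3, which turns on interferon beta. Secreted interferon beta then acts through its receptor on transcription factors, STAT2 and IRF9 among them, that bind interferon-stimulated response elements (ISRE) of target genes.

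The 7 genes form a single cluster of 263.8 kb on chromosome 11 (build GRCm38.p6, which is mm10), at chr11:82951349-83215154. In the order of the map they are Slfn5 on the plus strand, Slfn9 and Slfn8 on the minus strand, and Slfn2, Slfn1, Slfn4 and Slfn3 on the plus strand. The pseudogene Slfn10-ps lies between Slfn8 and Slfn2. Slfn14 lies outside, at chr11:83275110-83286726, and Slfnl1 is on chromosome 4. Neither was expressed at a usable level, with at most 1 count of Slfn14 and at most 5 counts of Slfnl1 in a library. Members that share sequence can share reads. The share of 100-base windows of a transcript that occur exactly in another Schlafen transcript was 3.7% for Slfn8 and 3.9% for Slfn9, mostly with Slfn10-ps, and 0.0% to 0.1% for the other members. The library kit does not mark strand. Reads of the antisense RNA Slfn5os (0 counts) cannot be told from those of Slfn5, and reads of Gm20234 (403 counts in total) cannot be told from those of Slfn2 (402292 counts). The row used for Slfn9 also runs over an annotated non-coding RNA at its end, and the shorter RefSeq transcript of the gene held 55.6% of its counts.

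Promoter sequences were read because the members are known as interferon targets and their levels varied together here. The windows are those of RefSeq on GRCm38.p6, from 250 bases before to 50 bases after an annotated start. A gene can have several starts. The window of Slfn5 belongs to one that lies 753 bases inside the outermost start of the gene, so its stretch below lies within the gene as mapped above, and Slfn8 has 2 windows, from starts 88 bases apart. They were searched on both strands for an ISRE core (GAAA, any 2 letters, then GAAA), an ETS core (AGGAAGT, the site type bound by the macrophage factor PU.1), an ETS-IRF composite (GGAA, any 2 letters, then GAAA), a GAS element (TTCNNNGAA, the gamma-activated sequence of interferon targets) and a kappaB site. The ETS and composite motifs were added after the sequences had been read. The 3 long members hold the ISRE core, as do 3.44% of the 32851 promoter windows of the genome. The stretches below are printed because they carry it. Each is written on the strand of its gene, with the match or its reverse complement in capitals.
Slfn5, plus strand, chr11:82951927-82951976: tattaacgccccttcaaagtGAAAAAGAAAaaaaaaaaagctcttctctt
Slfn8, minus strand, chr11:83020829-83020878: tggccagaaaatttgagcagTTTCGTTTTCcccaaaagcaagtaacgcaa
Slfn9, minus strand, chr11:82991846-82991895: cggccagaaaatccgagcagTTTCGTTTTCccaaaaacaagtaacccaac
The matches of Slfn8 and Slfn9 are the same 10 letters and begin 48 and 45 bases before the outermost start. Counted from the inner start of Slfn8, its match begins 136 bases before it. The match of Slfn5 begins 155 bases before the start of its window. Over the windows of their outermost starts Slfn8 and Slfn9 were 80.8% identical, and the next highest pair was at 53.0%.

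The short and intermediate members hold the ETS core and not the ISRE core. The ETS core is in 9.35% of all windows. In Slfn2 it overlaps the composite motif, found in 2.72% of all windows and in no other member. These stretches show the ETS core in capitals, except that of Slfn2, where the capitals mark the composite.
Slfn2, plus strand, chr11:83065033-83065082: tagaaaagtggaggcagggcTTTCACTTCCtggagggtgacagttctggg
Slfn1, plus strand, chr11:83116726-83116772: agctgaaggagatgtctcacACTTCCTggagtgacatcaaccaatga
Slfn4, plus strand, chr11:83175093-83175139: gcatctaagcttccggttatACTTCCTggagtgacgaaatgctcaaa
Slfn3, plus strand, chr11:83191251-83191297: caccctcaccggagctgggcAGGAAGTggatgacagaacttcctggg
Slfn3 has a second ETS core in the same stretch, on the opposite strand and in lower case here. A kappaB site was found in Slfn1 and Slfn9, against 4.51% of all windows, and a GAS element in 0 of the 7 genes, against 8.3%. A match is a description of letters and not evidence of binding.

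**Figure D1:**
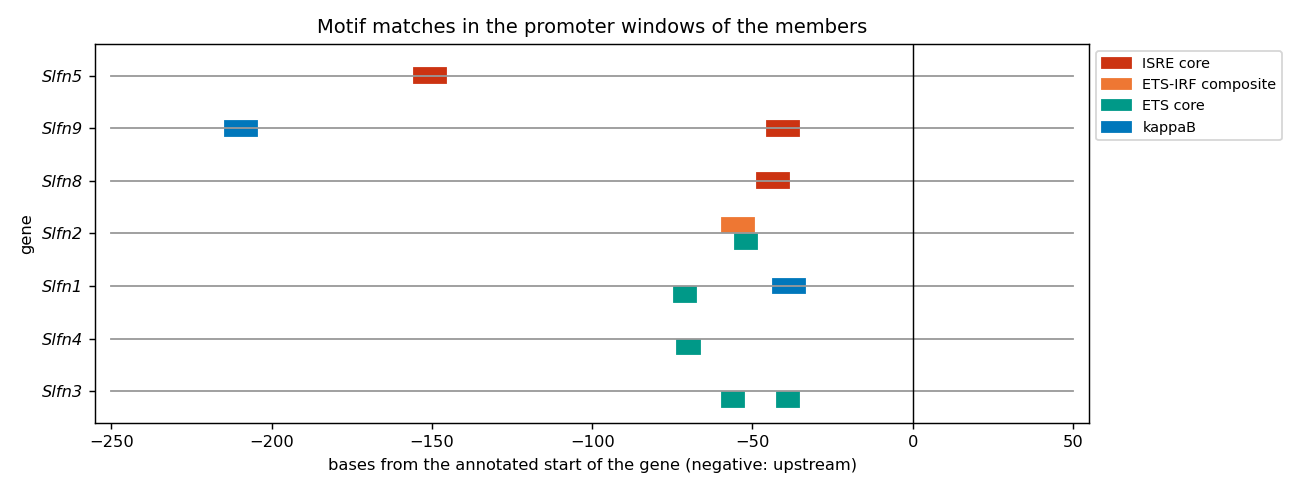
Positions of the motif matches in the promoter windows of the 7 members, in bases from the start that each window belongs to, for Slfn8 the outermost (x axis; genes in map order on the y axis). The ISRE core stands in Slfn5, Slfn8 and Slfn9, and the ETS core in Slfn1, Slfn2, Slfn3 and Slfn4.

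The headings of the columns were checked with Tlr4, the deleted gene, Lyz2, at whose locus the Cre stands, and Il1b, a cytokine gene induced by LPS. Levels are CPM, that is counts scaled to the size of the library, here by edgeR's TMM method. Tlr4 was at 76.7 to 147 CPM in LPS- tlr4f/f, 95.1 to 117 in LPS- tlr4f/f-lysM-cre, 24.3 to 31.1 in LPS+ tlr4f/f and 24.6 to 27.5 in LPS+ tlr4f/f-lysM-cre. Lyz2 was at 5950 CPM or more in the libraries headed LPS- and at 75.6 CPM or less in those headed LPS+. Il1b was at 1640 to 8220 CPM in both groups headed tlr4f/f-lysM-cre and at 6.93 CPM or less in those headed tlr4f/f. By the headings, the low Tlr4 and Lyz2 thus go with LPS and the high Il1b goes with the Cre. If the heading LPS- tlr4f/f-lysM-cre is exchanged with LPS+ tlr4f/f, low Tlr4 and Lyz2 go with the Cre and high Il1b goes with LPS. Among genes higher with LPS in tlr4f/f than in tlr4f/f-lysM-cre, the study reports enrichment of the response to interferon beta. Of the 18 interferon pathway genes below, this comparison as headed called 14 higher and 0 lower in tlr4f/f-lysM-cre. With the headings exchanged it called 0 higher and 7 lower. Libraries are named below by their headings, and each comparison is given in both readings. Over all genes, the libraries held 33577087 to 56445268 counts. The spread between replicates, as edgeR's common biological coefficient of variation, was 48.3% in LPS- tlr4f/f and 42.7% in LPS- tlr4f/f-lysM-cre, but 8.78% in LPS+ tlr4f/f and 9.02% in LPS+ tlr4f/f-lysM-cre. The edgeR test below fits a single spread per gene over all groups of a comparison. In a pair of LPS- and LPS+ groups, and in the interaction, its p-values therefore rest on a spread pooled over unlike groups.

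Summed markers of other cells were compared with those of macrophages. The 8 macrophage markers summed to 13763 to 29499 CPM in LPS- tlr4f/f and 17890 to 21364 in LPS- tlr4f/f-lysM-cre. In LPS+ tlr4f/f they summed to 4417 to 4682 CPM and in LPS+ tlr4f/f-lysM-cre to 7801 to 8025. Lyz2, at the Cre locus, is 1 of these 8 markers. It made up 6567 to 23264 CPM of the sums in LPS- tlr4f/f and 5950 to 9491 in LPS- tlr4f/f-lysM-cre. In the groups headed LPS+ it made up at most 75.6 CPM. The sums therefore follow Lyz2 in large part and do not measure the share of macrophages. The 5 fibroblast markers summed to 8.99 to 651 CPM in LPS- tlr4f/f, 134 to 1424 in LPS- tlr4f/f-lysM-cre, 19.9 to 24.6 in LPS+ tlr4f/f and 29.3 to 42.9 in LPS+ tlr4f/f-lysM-cre. The 6 neutrophil markers reached 164 CPM in LPS- tlr4f/f-lysM-cre and at most 12.2 CPM in the other groups, and Ly6g, their defining marker, had at most 3 counts in any library. The 4 dendritic cell markers summed to 4.75 to 13.1 CPM in LPS- tlr4f/f-lysM-cre, 2.90 to 3.67 in LPS+ tlr4f/f-lysM-cre and at most 0.770 in the groups headed tlr4f/f, with at most 3 counts of Flt3. By the edgeR test described below, log2 fold changes in LPS- tlr4f/f-lysM-cre against LPS- tlr4f/f were 4.75 for Xcr1 (adjusted p = 0.00651) and 4.33 for Ccr7 (0.0786). In LPS+ tlr4f/f-lysM-cre against LPS+ tlr4f/f they were 3.62 for Xcr1 (4.98e-06), 1.74 for Ccr7 (0.00838) and 0.78 for Zbtb46 (0.233). The 5 T lymphocyte markers summed to at most 6.63 CPM, with at most 3 counts of Cd3d, and the 4 B lymphocyte markers to at most 1.28 CPM. The part of other cells in the results below was not tested, except where a value is given.

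Of the short members, Slfn2 stood high in all groups and Slfn1 ranged over more than 2 orders of magnitude. Slfn2, whose protein keeps T cells and monocytes quiescent and shields transfer RNA from cleavage, was at 284, 319 and 276 CPM in LPS- tlr4f/f and at 253, 261 and 216 in LPS+ tlr4f/f. It was at 1684, 2069 and 1498 CPM in LPS- tlr4f/f-lysM-cre and at 1137, 1181 and 1049 in LPS+ tlr4f/f-lysM-cre. No 2 groups overlapped. Overlap of libraries is given here and below as a description, since the share of all genes without it was not counted. In bulk RNA such as this, a change in the share of cells that express a gene and a change in RNA per cell cannot be told apart. Slfn1, first described as a brake on thymocyte growth, spanned the wider range. Its levels were 17.1, 23.7 and 5.59 CPM in LPS- tlr4f/f, and 147, 278 and 354 in LPS- tlr4f/f-lysM-cre. In LPS+ tlr4f/f they were 0.880, 1.56 and 0.465 CPM, and LPS+ tlr4f/f-lysM-cre gave 53.4, 50.9 and 43.4. Again no groups overlapped. The library with the lowest level held 27 counts of Slfn1.

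Of the intermediate members, Slfn4, known as a marker of myeloid cells under interferon, varied more than any other. It was at 1436, 1072 and 1847 CPM in LPS- tlr4f/f-lysM-cre, 69.8, 56.7 and 79.6 in LPS+ tlr4f/f-lysM-cre and 2.62, 3.15 and 2.79 in LPS+ tlr4f/f. Within LPS- tlr4f/f the libraries spread over 84.5, 27.4 and 1.40 CPM, a ratio of 60.3 between the highest and the lowest. They overlapped both with LPS+ tlr4f/f, which lies within that spread, and with LPS+ tlr4f/f-lysM-cre. The next widest ratio within a group among the members was 4.24, for Slfn1 in the same libraries. Slfn3, the closest neighbour of Slfn4 on the map, varied less. Its levels were 15.3, 11.6 and 7.53 CPM in LPS- tlr4f/f and 10.2, 7.68 and 9.22 in LPS+ tlr4f/f, which overlapped. In LPS- tlr4f/f-lysM-cre they were 31.5, 35.6 and 34.5 CPM and in LPS+ tlr4f/f-lysM-cre 32.1, 34.7 and 41.8, which overlapped too, and all of these lay above the libraries headed tlr4f/f.

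In LPS- tlr4f/f the marker sums of fibroblasts, neutrophils and dendritic cells were in the order of Slfn4. Those of T and B lymphocytes were not, at 0.239, 0.850 and 0.523 CPM and at 0.838, 1.28 and 0.374 CPM. Those of macrophages, at 13763, 16476 and 29499 CPM, ran in the reverse order, with Lyz2 among them at 6567, 9486 and 23264 CPM. In replicates 1, 2 and 3 Slfn4 was at 84.5, 27.4 and 1.40 CPM. The fibroblast markers summed there to 651, 59.8 and 8.99 CPM and the neutrophil markers to 12.2, 8.76 and 0.542 CPM. Of the 18 genes of the type I interferon pathway described below, 5 were in the same order, among them Irf7, at 782, 545 and 104 CPM, and Isg15, at 130, 68.7 and 34.8 CPM, as were 19.6% of the 13415 genes with at least 10 counts in each of these libraries. The others, such as Usp18 at 74.7, 48.0 and 68.3 CPM, were not. In LPS- tlr4f/f-lysM-cre the fibroblast sums were 907, 134 and 1424 CPM, the order of Slfn4 in those replicates as well. In the groups headed LPS+ the fibroblast sums were between 19.9 and 42.9 CPM, with Slfn4 at 56.7 CPM or more in tlr4f/f-lysM-cre and at 3.15 CPM or less in tlr4f/f. In neither of these groups were the sums of fibroblasts, macrophages or T or B lymphocytes in the order of Slfn4. The neutrophil sums were in that order in LPS+ tlr4f/f only, at 4.09, 6.07 and 5.01 CPM. The dendritic cell sums were in that order in LPS+ tlr4f/f-lysM-cre only, at 3.54, 2.90 and 3.67 CPM. So were 16.6% of genes in LPS+ tlr4f/f and 16.9% in LPS+ tlr4f/f-lysM-cre, again with at least 10 counts. The part of any of these cell types in the levels of Slfn4 was not tested.

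The long members followed Slfn2. Slfn5, a nuclear protein and interferon target, was at 358, 320.0 and 364 CPM in LPS- tlr4f/f, 216, 204 and 184 in LPS+ tlr4f/f, 2411, 2627 and 1887 in LPS- tlr4f/f-lysM-cre and 1489, 1585 and 1670.4 in LPS+ tlr4f/f-lysM-cre. Slfn8 was at 111, 73.7 and 107 CPM in LPS- tlr4f/f, 49.2, 43.2 and 41.7 in LPS+ tlr4f/f, 944, 914 and 704 in LPS- tlr4f/f-lysM-cre and 404, 419 and 468 in LPS+ tlr4f/f-lysM-cre. For both genes no groups overlapped, and the order from low to high was LPS+ tlr4f/f, LPS- tlr4f/f, LPS+ tlr4f/f-lysM-cre, LPS- tlr4f/f-lysM-cre, as it was for Slfn1, Slfn2 and, by its means, Slfn4. Slfn9 departed from this order at its lower end. It was at 65.4, 83.4 and 36.6 CPM in LPS- tlr4f/f and 77.8, 67.2 and 60.8 in LPS+ tlr4f/f, which overlapped. The other groups lay above, with 221, 315 and 198 CPM in LPS- tlr4f/f-lysM-cre and 129, 136 and 169 in LPS+ tlr4f/f-lysM-cre. The pseudogene Slfn10-ps, which lies between Slfn8 and Slfn2, was between 22.8 and 54.4 CPM in all 12 libraries. Its libraries headed tlr4f/f-lysM-cre, at 36.2 to 54.4 CPM, lay above those headed tlr4f/f, at 22.8 to 32.2 CPM.

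**Figure D2:**
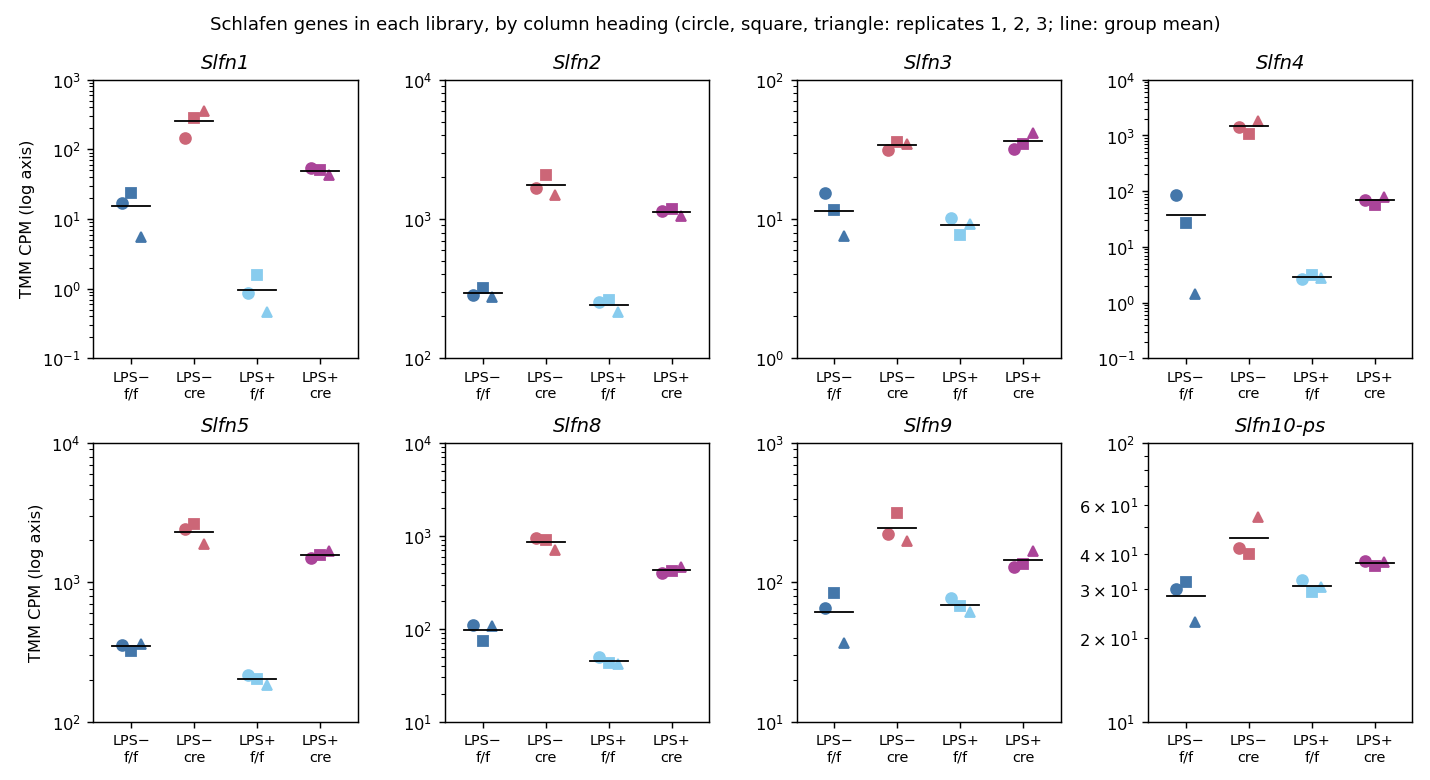
TMM CPM (log axis) of the 7 members and of the pseudogene Slfn10-ps in each of the 12 libraries, grouped by column heading, with f/f for tlr4f/f and cre for tlr4f/f-lysM-cre; the line is the mean of 3 libraries. The libraries headed tlr4f/f-lysM-cre lie above those headed tlr4f/f for every member except Slfn4, whose LPS- tlr4f/f libraries range from 1.40 to 84.5 CPM. They do so for Slfn10-ps as well.

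Per kilobase of transcript, which allows levels of different genes to be compared, Slfn2 was the most abundant member in all 4 groups and Slfn5 the second. Slfn2 was at 176 ± 13.6 CPM per kilobase in LPS- tlr4f/f, 1052 ± 175 in LPS- tlr4f/f-lysM-cre, 146 ± 14.3 in LPS+ tlr4f/f and 674 ± 40.4 in LPS+ tlr4f/f-lysM-cre (SD, n = 3). It made up between 47.9% and 70.5% of the summed level of the family. This order rests on the use of 1 transcript row per gene. Slfn2 has 1 row and Slfn5 has 8 that share reads, and with the counts of all rows summed over the same lengths Slfn5 was at rank 1 in all 4 groups and Slfn2 at rank 2 or 3, with 15.2% to 33.4% of the sum. With 1 row per gene, Slfn4 changed its rank most, from rank 3 in LPS- tlr4f/f-lysM-cre, with 16.5% of the sum, to rank 7 in LPS+ tlr4f/f-lysM-cre, with 1.53%. Its share in LPS+ tlr4f/f was 0.344%. Summed over the 7 genes, the family stood at 290.3 ± 22.5 CPM per kilobase in LPS- tlr4f/f, 2196 ± 162 in LPS- tlr4f/f-lysM-cre, 207 ± 18.5 in LPS+ tlr4f/f and 1122 ± 24.7 in LPS+ tlr4f/f-lysM-cre (SD, n = 3).

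**Figure D3:**
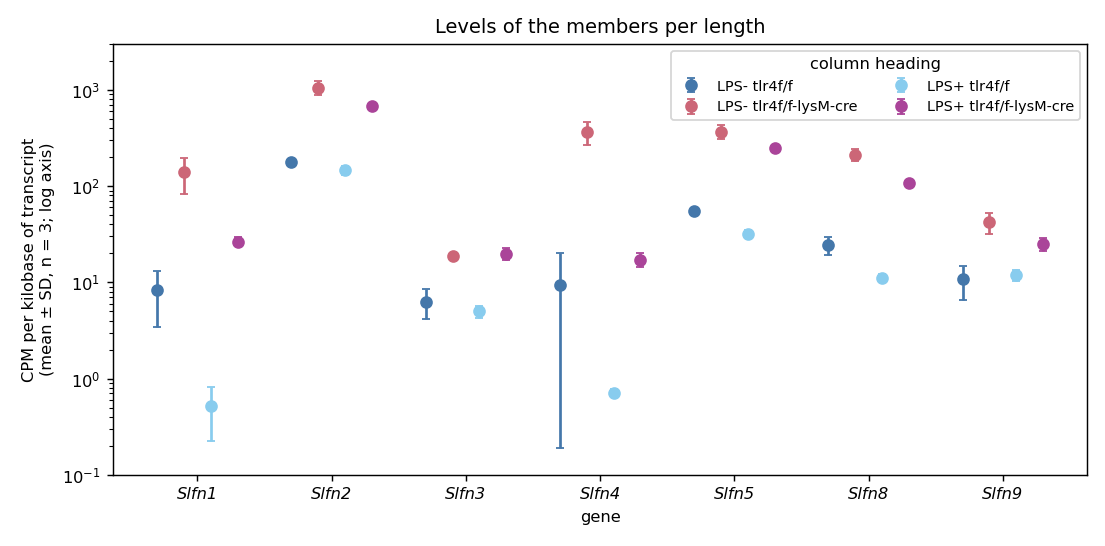
Mean level of each member in CPM per kilobase of transcript (log axis) by column heading, with SD over 3 libraries as bars; the lower bar of Slfn4 in LPS- tlr4f/f is shortened because its SD of 10.6 exceeds its mean of 9.45. With 1 transcript row per gene Slfn2 is the highest in all 4 groups, and Slfn4 in LPS- tlr4f/f-lysM-cre stands close to Slfn5.

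Groups were compared with edgeR's quasi-likelihood test and Benjamini-Hochberg adjustment over all genes tested, and a gene was called when it differed more than 2-fold at an adjusted p under 0.01. Standard errors (SE) are those of log2 fold changes, derived from the fold change and the F statistic of the test. LPS+ tlr4f/f-lysM-cre against LPS+ tlr4f/f asks for the effect of the genotype under LPS as headed, and for that of LPS in tlr4f/f-lysM-cre with the headings exchanged. All 7 members were called higher in LPS+ tlr4f/f-lysM-cre, against 10.8% of 14540 genes. The largest log2 fold changes were those of Slfn1, at 5.74 (SE 0.310, adjusted p = 1.30e-05), and Slfn4, at 4.59 (SE 0.146, adjusted p = 7.83e-09). The long members Slfn8 and Slfn5 followed with 3.26 and 2.97, a fold of 9.59 and 7.83, and Slfn2 with 2.20. The smallest were those of Slfn3, at 1.99 (SE 0.128), and Slfn9, at 1.07 (SE 0.133, adjusted p = 0.000373). The median over the members was 2.97 and that over all genes -0.02. Slfn9 lay close to the fold limit and was no longer called without replicate 3 of LPS+ tlr4f/f (0.98) or of LPS+ tlr4f/f-lysM-cre (0.95). The pseudogene Slfn10-ps had a log2 fold change of 0.27 (SE 0.0616, adjusted p = 0.00219), below the fold limit.

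LPS- tlr4f/f-lysM-cre against LPS- tlr4f/f asks for the effect of the genotype without LPS as headed, and for that of LPS in tlr4f/f with the headings exchanged. Here 6 of the 7 members were called higher in LPS- tlr4f/f-lysM-cre, against 9.25% of 14635 genes. These were Slfn1 with a log2 fold change of 4.06 (SE 0.627, adjusted p = 0.00437), Slfn8 with 3.13 (0.247, adjusted p = 0.000646), Slfn5 with 2.72, Slfn2 with 2.57, Slfn9 with 1.97 and Slfn3 with 1.55. Slfn4 had the largest value, 5.25, but also the largest standard error, 1.34 (adjusted p = 0.0242), and was not called. Without replicate 3 of LPS- tlr4f/f, the library with 1.40 CPM, its log2 fold change was 4.68 (SE 0.646, adjusted p = 0.00638) and all 7 members were called. The median was 2.72 over the members and -0.08 over all genes. Slfn10-ps had a log2 fold change of 0.68 (SE 0.205, adjusted p = 0.0399) and was not called. Without replicate 2 of LPS- tlr4f/f, or without replicate 2 or 3 of LPS- tlr4f/f-lysM-cre, 3 members were called, and without replicate 1 of either group 4. Genes called higher fell at the same time to between 4.14% and 6.12% of those tested. Slfn2, Slfn5 and Slfn8 kept an adjusted p of at most 0.00540 with any library left out.

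LPS+ tlr4f/f-lysM-cre against LPS- tlr4f/f-lysM-cre asks for the effect of LPS in tlr4f/f-lysM-cre as headed, and for that of the genotype under LPS with the headings exchanged. The members called were Slfn4, 21.1-fold lower in LPS+ tlr4f/f-lysM-cre with a log2 fold change of -4.40 (SE 0.276, adjusted p = 0.000881), and Slfn1, 5.26-fold lower with -2.39 (SE 0.319, adjusted p = 0.00430). These 2 of 7 stand against 3.65% of 14234 genes called lower, and 0 of 7 were called higher, against 2.42%. Slfn8 was just short of the fold limit, 1.97-fold lower at an adjusted p of 0.00629. Slfn9, Slfn2 and Slfn5 had log2 fold changes of -0.74, -0.63 and -0.53 with adjusted p between 0.0217 and 0.0412. Slfn3 was at 0.10 (SE 0.131, adjusted p = 0.596). The median was -0.74 over the members and 0.03 over all genes. Without replicate 3 of LPS- tlr4f/f-lysM-cre, Slfn8 was called as well (-1.12). Without any 1 library of LPS+ tlr4f/f-lysM-cre, replicate 1, 2 or 3, 0 members were called, with an adjusted p of at most 0.0142 for Slfn4 and 0.0337 for Slfn1. The calls were lost over the whole table, since 3, 5 and 13 genes were then called lower, against 520 with all libraries.

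LPS+ tlr4f/f against LPS- tlr4f/f asks for the effect of LPS in tlr4f/f as headed, and for that of the genotype without LPS with the headings exchanged. By edgeR 0 of the 7 members were called, as were 0 of 14701 genes, a share of 0%. At an unadjusted p below 0.05 there were 4 of 7 members and 3624 genes, or 24.7%. DESeq2 called 2 members lower in LPS+ tlr4f/f, Slfn1 and Slfn8, among 226 genes called lower and 241 called higher, and limma voom called 0 members among 34 and 20 genes. Slfn1 had a log2 fold change of -3.99 (SE 0.696, adjusted p = 0.0536) and Slfn4 one of -3.71 (SE 1.26, adjusted p = 0.145). For Slfn8 it was -1.09 (SE 0.174, adjusted p = 0.04996) and for Slfn5 -0.76 (SE 0.107, adjusted p = 0.0474). Slfn2, Slfn3 and Slfn9 were at -0.24, -0.32 and 0.17, each with an adjusted p of 0.250 or more. The libraries of Slfn1, Slfn2, Slfn5 and Slfn8 did not overlap between these groups. How many of all genes also did not overlap was not counted, so this is a description only.

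In LPS+ tlr4f/f-lysM-cre against LPS- tlr4f/f, the pair that no exchange of these headings touches, 4 members were called higher in LPS+ tlr4f/f-lysM-cre, against 6.92% of 14584 genes. They were Slfn5 with a log2 fold change of 2.19 (SE 0.122, adjusted p = 0.000202), Slfn8 with 2.15 (0.184), Slfn2 with 1.94 (0.117) and Slfn3 with 1.66 (0.269, adjusted p = 0.00486). Slfn1, at 1.67, and Slfn9, at 1.23, missed the adjusted p with 0.0371 and 0.0204. Slfn4 was at 0.86 (SE 1.12, adjusted p = 0.573), and its value ranged from 0.29 to 2.25 with the library left out. Slfn3 was no longer called without replicate 2 of LPS- tlr4f/f or without replicate 1, 2 or 3 of LPS+ tlr4f/f-lysM-cre, where genes called higher numbered 431, 393 and 484, against 1009 with all libraries. The median was 1.67 over the members and -0.05 over all genes. These comparisons share libraries with each other, so they are not independent of one another.

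The interaction of genotype and LPS over the 12 libraries, which is the same in both readings, was called for 0 of the 7 members, against 1.04% of 15775 genes. An unadjusted p below 0.05 was reached by 23.5% of all genes and by 1 of 7 members, Slfn9, with -0.91 on the log2 scale (SE 0.382, adjusted p = 0.179). Slfn1 had the largest value, 1.63 (SE 0.747, adjusted p = 0.220), and the other members lay between -0.67 and 0.43. DESeq2 and limma voom also called 0 members.

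**Figure D4:**
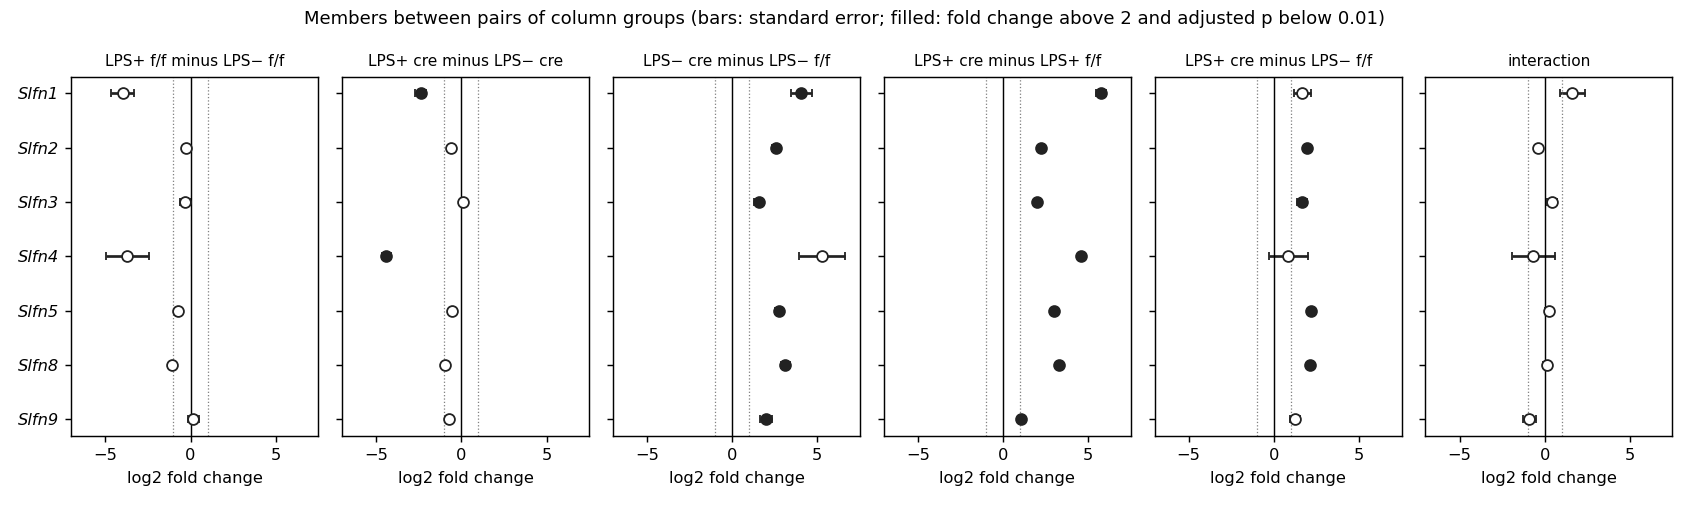
Log2 fold changes of the 7 members (x axis) in 5 pairs of column groups and in the interaction, with the standard error as bars; filled points differ more than 2-fold at an adjusted p under 0.01 by edgeR, and dotted lines mark the fold limit. All 7 points are filled for LPS+ tlr4f/f-lysM-cre minus LPS+ tlr4f/f, and 0 for LPS+ tlr4f/f minus LPS- tlr4f/f and for the interaction.

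The type I interferon pathway was followed through 18 genes from ligand to targets. Ifnb1, the ligand interferon beta, had 96 to 150 counts in LPS- tlr4f/f-lysM-cre and 13 to 23 in LPS+ tlr4f/f-lysM-cre, but 1 or 2 counts in each LPS- tlr4f/f library and 0 in LPS+ tlr4f/f. Set against a floor of 3 counts per library, it was at least 73.7-fold higher in LPS- tlr4f/f-lysM-cre than in LPS- tlr4f/f and at least 6.69-fold higher in LPS+ tlr4f/f-lysM-cre than in LPS+ tlr4f/f. Between the groups headed tlr4f/f-lysM-cre it was 8.87-fold lower in LPS+ (adjusted p = 0.00261).

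In LPS+ tlr4f/f-lysM-cre against LPS+ tlr4f/f, 14 of the 18 pathway genes were called higher, against 10.8% of all genes. They included 4 of 4 targets, such as Rsad2, or viperin, with a log2 fold change of 6.08, both feedback inhibitors, Socs1 with 5.54 and Usp18 with 4.04, and 2 of 4 factors, Irf7 with 2.44 and Stat2 with 2.41. The receptor subunit Ifnar1 was called with 1.40. So were 3 of 3 genes that act before interferon, towards IRF3: Ticam1 with 1.07, Ticam2 with 1.18 and Tbk1 with 1.16. Irf3 itself was not, with 0.26, and neither were Irf9 with 0.68, Ifnar2 with 0.94 and Jak1 with 0.45, which act after interferon. In LPS- tlr4f/f-lysM-cre against LPS- tlr4f/f, 13 of 18 were called higher, against 9.25%. Among them were 4 of 4 targets and 2 of 3 genes towards IRF3. LPS+ tlr4f/f-lysM-cre against LPS- tlr4f/f-lysM-cre had 7 of 18 called lower, against 3.65%, with a log2 fold change of -2.17 for Irf7, -2.07 for Rsad2 and -1.95 for Isg15. For LPS+ tlr4f/f against LPS- tlr4f/f, 0 of the 17 pathway genes tested were called by edgeR, 11 had an unadjusted p below 0.05, against 24.7% of all genes, and Ifnb1 was too low to be tested. In LPS+ tlr4f/f-lysM-cre against LPS- tlr4f/f, 9 of 18 were called higher, against 6.92%. The interaction was called by edgeR for 0 of 18, against 1.04%, and 5 of 18 had an unadjusted p below 0.05, against 23.5% of all genes.

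**Figure D5:**
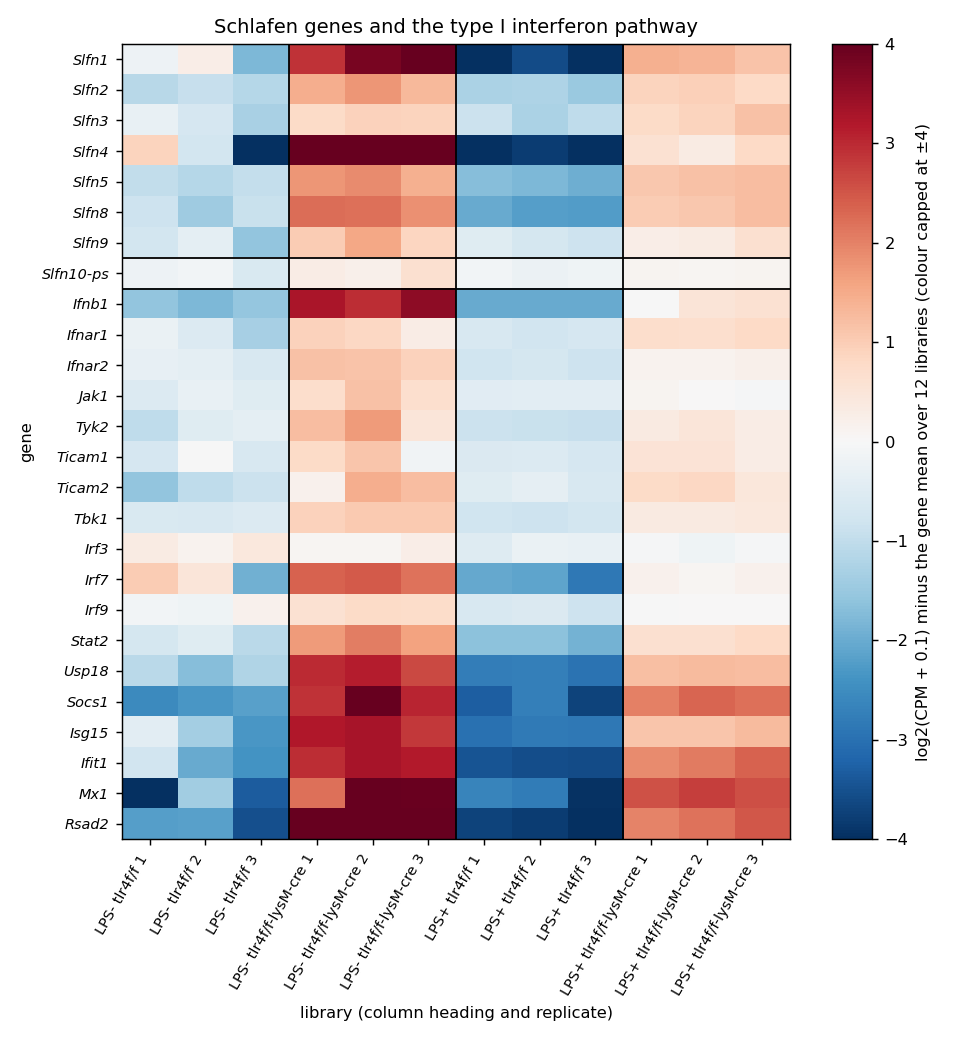
Log2(CPM + 0.1) of the members, Slfn10-ps and 18 genes of the type I interferon pathway (rows) in the 12 libraries (columns), each minus the mean of its gene, with the colour capped at 4. The members and the interferon targets lie above their means (red) in both groups headed tlr4f/f-lysM-cre and below them (blue) in LPS+ tlr4f/f; the lowest member value in LPS+ tlr4f/f-lysM-cre is 0.25, of Slfn9, which is as pale as the values of Slfn10-ps (-0.59 to 0.65) and Irf3 (-0.50 to 0.43).

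Levels of the members varied together across libraries. Pearson's r of log2 CPM over the 12 libraries was between 0.813, for Slfn1 and Slfn9, and 0.994, for Slfn5 and Slfn8, with a median of 0.898 over 21 pairs. The 12 points fall into the 4 groups, so these values mostly describe the group means, and they carry no p. Among 15775 genes, those most like Slfn8 over the same libraries were Usp18 (r = 0.997), Dtx3l and Slc25a37, and those most like Slfn5 were Parp9 (r = 0.996), Trim21 and Nod2. For Slfn2 they were Elf4 (r = 0.997), Parp9 and Parp14. Slfn4 was most like Apol9a (r = 0.990), Gm13822 and Pde1b, and Slfn1 most like LOC102639543 (r = 0.989), Clec4a1 and Pydc4. For Slfn3 the nearest genes were Mitd1 (r = 0.984), Cpd and A430093F15Rik, and for Slfn9 they were Adrbk2 (r = 0.988), Vta1 and Dse.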

How the data were processed

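Total RNA of BMDMs was sequenced by the authors as paired reads, trimmed with Trimmomatic 0.36 according to the submitters' processing notes, aligned to mm10 with HISAT2 and counted with HTSeq. The deposited values are raw counts in 115140 transcript rows, without normalization. Transcripts of a gene share reads, so the row with the highest total was used. Ensembl gene identifiers were matched to symbols for 7551 of 7596. The counts come from reads without molecular identifiers, so floors cover counting error only.

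TMM CPM and tests were computed in R 4.3.3 with edgeR 4.0.16 (filterByExpr, robust quasi-likelihood fit, Benjamini-Hochberg adjustment over all genes tested), each pair on its 6 libraries and the interaction on 12. Thresholds (fold change above 2, adjusted p below 0.01) follow the study, which used DESeq. CPM per kilobase used the length of the row. Alternatives were DESeq2 1.42.0, limma 3.58.1 voom with sample weights, RLE factors, other filters, a joint fit, the replicate number as a block, the sum over rows, an adjusted p below 0.05, each library left out, and, chosen after seeing the data, the RefSeq NM row of each member. Promoters were aligned with Biopython 1.88. Same-numbered libraries were not treated as pairs: r of their deviations from group means was above 0.1 in 5 of 18 pairs. The highest values, 0.472 and 0.340, were those of replicates 1 and 2 of LPS- tlr4f/f with LPS- tlr4f/f-lysM-cre, and replicate 3 of these groups was at 0.0143. The tests were tested on simulated data. The members, lists and motifs were chosen with earlier results of these data known. A gene of the pathway list is not reported here, and counts over the list leave it out. Named genes are the members, the other Schlafen genes, the heading checks and the pathway genes with the largest changes by role. Further pathway genes, the 3 genes most like each member and some markers of other cells are named too.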

Additional observations from a re-analysis of the deposited data

How the results depend on the processing

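The reading of the headings decides the direction of most comparisons. When the heading LPS- tlr4f/f-lysM-cre is exchanged with LPS+ tlr4f/f, 6 members were higher with LPS in tlr4f/f (0 as headed) and 7 in tlr4f/f-lysM-cre (0 as headed, with 2 lower as headed and 0 lower when exchanged). Of all genes, 9.25% and 10.8% were called higher when exchanged, against 0% and 2.42% as headed. Called lower with LPS in tlr4f/f-lysM-cre were 10.9% of all genes when exchanged and 3.65% as headed. For the genotype, with the headings exchanged, 0 members were higher without LPS (6 as headed), and 0 were higher (7 as headed) and 2 lower (0 as headed) with LPS. Of all genes, 0% were then called higher without LPS (9.25% as headed). With LPS, 2.42% were called higher (10.8% as headed) and 3.65% lower (10.9% as headed). Comparing LPS+ tlr4f/f with LPS- tlr4f/f, members called lower numbered 2 by DESeq2, 2 in a fit of all 12 libraries and 1 at an adjusted p below 0.05. Of all genes, 1.54%, 0.336% and 0.306% were called lower in these settings. With 1 library left out, the members called lower in LPS+ tlr4f/f-lysM-cre against LPS- tlr4f/f-lysM-cre numbered 0 to 3, against 0.0203% to 4.89% of all genes. Those called higher in LPS- tlr4f/f-lysM-cre against LPS- tlr4f/f numbered 3 to 7, against 4.14% to 6.37% of all genes. Values near 0 changed sign: Slfn9 to -0.099 (range with 1 library left out -0.099 to 0.45) in LPS+ tlr4f/f against LPS- tlr4f/f without LPS- tlr4f/f replicate 3, Slfn3 to -0.0073 (-0.0073 to 0.19) in LPS+ tlr4f/f-lysM-cre against LPS- tlr4f/f-lysM-cre without LPS+ tlr4f/f-lysM-cre replicate 3, and Slfn8 in the interaction to -0.018 by limma voom and to -0.0015 (-0.0015 to 0.29) without LPS- tlr4f/f-lysM-cre replicate 3. Of 707 values of members under the alternatives, 649 kept their direction and side of the threshold, 33 lost a call, 21 gained a call and 4 changed sign. The cause of these changes was not tested. With the counts of all transcript rows summed, 27 of 28 group levels moved by more than the spread between replicates, to between 0.291 and 2.15 times their value, and the order of the groups was the same for all 7 members. A read then counts once for each row it falls in.

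Where the replicate number was fitted as a block, the members called lower in LPS+ tlr4f/f-lysM-cre against LPS- tlr4f/f-lysM-cre numbered 1, against 1.12% of all genes. Those called higher in LPS- tlr4f/f-lysM-cre against LPS- tlr4f/f numbered 4, against 7.98% of all genes. With the block 6 members were called higher in LPS+ tlr4f/f-lysM-cre against LPS+ tlr4f/f, since Slfn9 had an adjusted p of 0.0283, and 3 in LPS+ tlr4f/f-lysM-cre against LPS- tlr4f/f. Of all genes, 11% and 3.66% were called higher in these comparisons. Genes called in LPS+ tlr4f/f-lysM-cre against LPS- tlr4f/f-lysM-cre went from 345 higher and 520 lower to 52 and 160.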
